A study of Mus musculus with 37 samples.

Results

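The genes followed here across cultures of primary mouse astrocytes mark reactive astrocytes or the acute-phase response. They are Lcn2, Saa3, Serpina3n, Steap4, Cp, Hspb1, Cd44, Osmr, Socs3 and Il6. They were chosen by name, with earlier results of these data known. Every probe set annotated to one of them was taken, which gave 10 of 18194 named genes and 26 of the 45101 probe sets on the array. Of the 26, 25 passed the filter on low values (above the background level on at least 4 arrays) and were tested. The exception was Cd44 probe set 1443265_at, which lay between 2.29 and 2.68 on the log2 scale, below the background level of 3.19 on all 37 arrays. Cp was represented by 8 probe sets, Cd44 by 4, Osmr and Socs3 by 3 each, Steap4 and Hspb1 by 2 each, and the other genes by 1 each. Each gene is described by the probe set with its highest mean, and the others are given where they differ.

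The cells were isolated from newborn mice at postnatal day 0 to 1, grown in medium with 20% serum, and carried either a pcDNA3.1-hygro plasmid with Cdca7l or the same plasmid without an insert, introduced by nucleofection and kept as stable transfectants. Isolates came from 2 strains, 129S4/SvJae (129) and C57BL/6J (B6), and from both sexes. In 129 there were 4 female and 5 male arrays with each plasmid; in B6 there were 4 female Cdca7l arrays, 5 female vector arrays and 5 male arrays with each plasmid. The vector pcDNA3.1 is known to drive its insert from the CMV promoter, so Cdca7l was not under the control of its own promoter. The titles give each array a clone number, used here as its name, as in 2(2). No further allele, agent or stimulus is named in the labels, all 8 groups share the hygromycin-resistance plasmid and the serum-containing medium, and the labels do not say how many animals an isolate pooled or how far a clone number stands for separate animals, so p-values measure the spread between these samples.

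Astrocytes answer injury, infection and inflammatory cytokines with a graded change of gene expression called reactivity. Interleukin 6 and its relatives leukaemia inhibitory factor and oncostatin M signal through receptors that share gp130 (Il6st) to JAK kinases and the transcription factor STAT3, while interleukin 1 and tumour necrosis factor signal through NF-kB, and C/EBP factors cooperate with both. In the liver the same routes switch on acute-phase proteins, and in astrocytes they raise secreted proteins such as lipocalin 2, serum amyloid A3, the serpin Serpina3n and ceruloplasmin. Socs3 is induced by STAT3 and inhibits it, so that its level follows the signal it limits. Astrocytes cultured in serum are known to express a part of this programme without any added stimulus.

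The 10 members each had a promoter in the RefSeq table of build GRCm38.p6, 11 promoters in all because Cp has 2 listed starts. The 4 promoters printed here belong to Lcn2, Saa3 and Steap4, which were all low on the same 2 B6 male vector arrays, and to the cytokine Il6. Each is the 250 bases before the transcription start, written 5′ to 3′ on the strand of the gene, with matches to the motifs searched in capitals.
Lcn2, chr2:32387740-32387989, minus strand: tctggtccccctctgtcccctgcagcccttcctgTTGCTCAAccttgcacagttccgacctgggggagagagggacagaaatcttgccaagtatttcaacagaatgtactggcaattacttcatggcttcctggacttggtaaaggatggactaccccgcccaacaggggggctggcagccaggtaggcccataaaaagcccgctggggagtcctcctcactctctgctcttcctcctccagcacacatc
Saa3, chr7:46715677-46715926, minus strand: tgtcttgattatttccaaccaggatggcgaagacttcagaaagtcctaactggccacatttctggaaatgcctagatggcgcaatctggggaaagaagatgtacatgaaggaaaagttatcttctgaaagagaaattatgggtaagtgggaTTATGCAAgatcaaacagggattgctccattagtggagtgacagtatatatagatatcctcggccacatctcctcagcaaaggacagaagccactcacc
Steap4, chr5:7960222-7960471, plus strand: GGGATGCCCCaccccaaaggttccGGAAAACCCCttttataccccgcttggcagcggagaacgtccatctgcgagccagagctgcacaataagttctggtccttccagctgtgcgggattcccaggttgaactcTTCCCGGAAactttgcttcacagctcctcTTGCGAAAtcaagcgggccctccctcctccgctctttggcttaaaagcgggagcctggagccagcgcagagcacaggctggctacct
Il6, chr5:30012864-30013113, plus strand: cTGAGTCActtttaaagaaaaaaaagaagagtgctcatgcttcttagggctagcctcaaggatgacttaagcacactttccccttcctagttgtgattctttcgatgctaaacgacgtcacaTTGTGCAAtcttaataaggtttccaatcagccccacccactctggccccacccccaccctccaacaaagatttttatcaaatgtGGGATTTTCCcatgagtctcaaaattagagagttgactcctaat

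Capitals mark matches on either strand to the 10-base kappaB consensus, to the STAT motif TTCNNNGAA, to the C/EBP motif TTGCNNAA and to the AP-1 motif TGANTCA. A C/EBP match was present in the promoters of 5 member genes, Lcn2, Saa3, Steap4, Il6 and Cp, and in 9.56% of the 32851 promoters of the table over the same length. The kappaB consensus was found for Steap4, with 2 matches, and Il6 (7.25% of all promoters), the STAT motif for Steap4 and Socs3 (7.02%), and AP-1 for Il6 and Cp (6.75%). In Il6 the kappaB match began 44 bases before the start. The heat shock element GAANNTTC was searched as well and had 2 matches in the promoter of Hspb1 and in no other member (6.69% of all promoters). No 2 different motifs overlapped in a printed promoter. These matches describe letters in a window and were not tested for binding.

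RNA of Cdca7l was higher on each Cdca7l array than on every vector array of the same strain and sex, at 10.15 to 14.42 on 18 Cdca7l arrays and 4.12 to 10.43 on 19 vector arrays. The array labelled B6 female vector 5.1(1) had Xist at 2.40 and Eif2s3y at 11.91, both inside the ranges of the 20 male arrays, against 10.71 to 12.20 for Xist on the other 16 female arrays. On 129 female vector 1(3) the upper quartile of all values was 8.36, against 9.03 to 9.51 on the other 36. Both arrays stayed in, and values without them are given where a call changed. The astrocyte markers Aqp4, Gfap, Slc1a3, Sox9 and Glul were above background on all 37 arrays, Gfap at 10.02 to 13.97 and Aqp4 at 11.33 to 14.50, while the gap junction gene Gjb6 exceeded background on 3 arrays and S100b on 13. Of the microglial markers Cx3cr1, Itgam and Trem2 were above background on 0 arrays and Aif1 on 3, yet Cd68 and Fcer1g exceeded it on all 37. In such bulk RNA, fewer cells of a type and less RNA per cell cannot be told apart.

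The 10 genes were above the background level on all 37 arrays by their main probe sets, except Saa3 on 2 B6 male vector arrays. As a percentile of mean level among all probe sets, Lcn2 stood at 99.6, Cp at 99.4, Cd44 at 98.0, Socs3 at 93.9, Steap4 at 91.7, Osmr at 91.5, Serpina3n at 90.5, Saa3 at 89.2, Hspb1 at 83.9 and Il6 at 64.0. These are levels of probe sets with different affinities, and they give no order of RNA abundance between genes. The spread between cultures of the same group was large for most members. The residual SD was 2.38 for Steap4, 2.28 for Serpina3n, 2.16 for Il6, 2.10 for Saa3 and 1.72 for Osmr on the log2 scale, where the median over all tested probe sets was 0.64. That placed these 5 between the 95.7th and the 99.3rd percentile of spread, whereas Cp lay at the 57.6th, Socs3 at the 49.0th and Cd44, with an SD of 0.24, at the 8.6th.

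**Figure D1:**
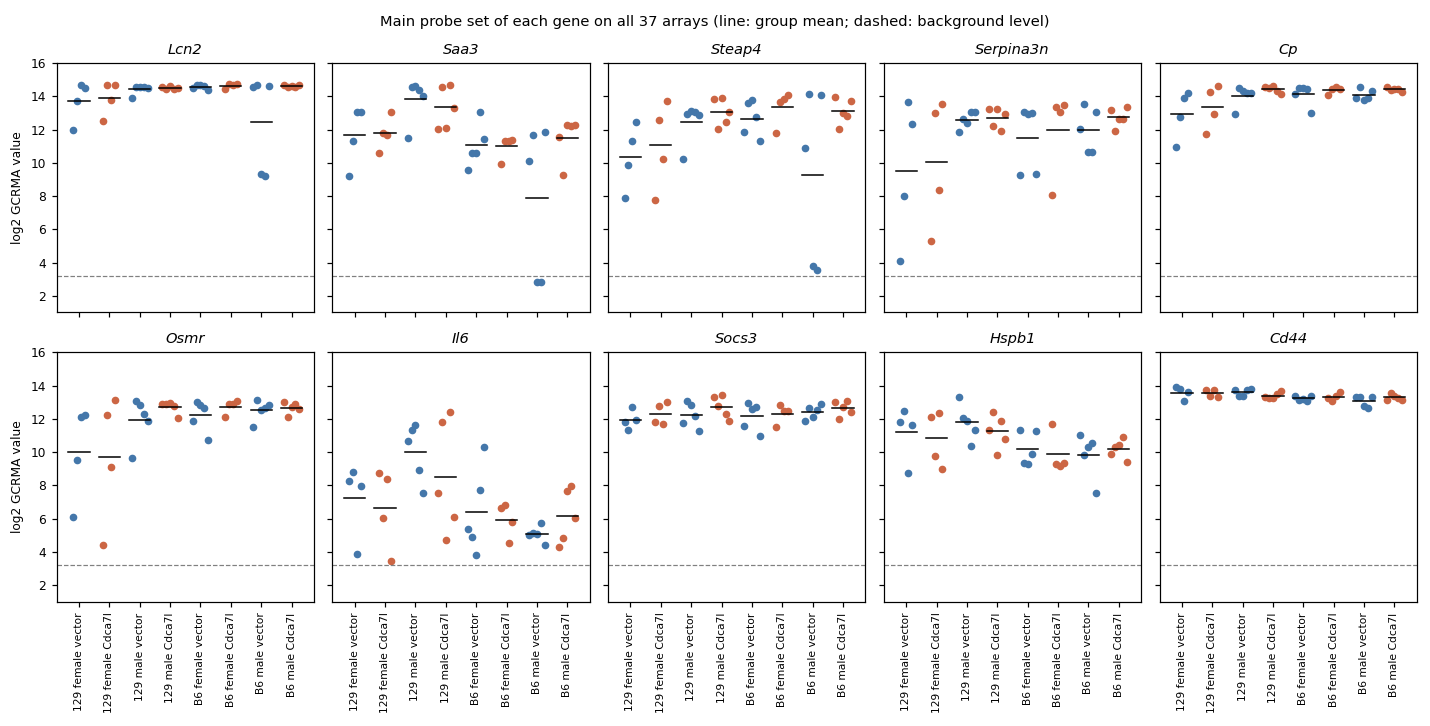
Log2 GCRMA value of the main probe set of each gene (y axis) on the 37 arrays, by group (x axis); blue points are vector arrays, orange points Cdca7l arrays, black lines group means and the dashed line the background level of 3.19. Lcn2, Saa3 and Steap4 show a pair of very low arrays in the B6 male vector group. Serpina3n, Osmr, Cp, Steap4, Lcn2 and Saa3 show lower arrays in 129 females of both constructs.

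The first question of the design was whether Cdca7l changed these genes. Averaged over the 4 strain and sex combinations, none of the 25 member probe sets passed an adjusted p of 0.05 in limma and 0 had an unadjusted p under 0.05; among all 25579 tested probe sets 2 passed, which is 0.00782%, and 324 had an unadjusted p under 0.05. The differences leaned upward all the same: 21 of 25 member probe sets were higher with Cdca7l, with a median of 0.39, beside 55.2% of all probe sets and a median of 0.02. Several of these probe sets measure the same gene, and no test of the list was made. The members were chosen with earlier results of these data known, so the counts are a description only. Steap4, a metalloreductase that reduces iron and copper, had the largest averaged difference among the main probe sets, 1.45 ± 0.762 (SE; adjusted p in limma = 0.999), followed by Saa3 at 0.81 ± 0.672 and Lcn2 at 0.63 ± 0.392. Socs3 stood at 0.32 ± 0.206, Cp at 0.35 ± 0.237 and the oncostatin M receptor Osmr at 0.29 ± 0.551. Hspb1, a small heat shock protein that binds unfolded proteins and actin, and Il6 were on the other side of 0 at -0.22 ± 0.389 and -0.37 ± 0.692. Cd44, the hyaluronan receptor, was at 0.01 ± 0.0862, with a 95% interval of -0.16 to 0.19. For Steap4 the interval ran from -0.10 to 3.00.

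Within the 4 strain and sex combinations 0 member probe sets passed in limma, and 0 (0%) of all probe sets did. At an unadjusted p under 0.05, members numbered 0 of 25 in 129 females, 129 males and B6 females and 3 of 25 in B6 males, beside 503, 422, 142 and 538 of all probe sets in the same order of groups. The numbers of member probe sets that were higher with Cdca7l were 19 in 129 females, 18 in 129 males, 20 in B6 females and 24 in B6 males, beside 59.2%, 45.9%, 55.1% and 46.3% of all probe sets. The 3 in B6 males were Lcn2, Saa3 and Steap4. The limits given for the averaged counts hold for these counts too.

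Lcn2 encodes lipocalin 2, a secreted protein that binds iron-loaded siderophores and is among the best known markers of reactive astrocytes. In B6 males its log2 value with Cdca7l was 14.66 on 5(3), 14.55 on 4(3), 14.60 on 5.6(1), 14.56 on 2(2) and 14.71 on 3(5). With vector it was 14.57 on 4(3), 14.66 on 2(4), 14.64 on 3(5), 9.30 on 5.6(1) and 9.19 on 2(2). Thus 3 vector arrays lay among the Cdca7l arrays, and the other 2 lay below every other array of the series, whose lowest Lcn2 value was 11.95. The difference was 2.14 ± 0.75 (unadjusted p = 0.00754, adjusted p = 1 in limma). Many values of Lcn2 were close to the top of the scale, whose highest value in the table was 15.26.

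Saa3 encodes serum amyloid A3, an acute-phase protein made outside the liver. In B6 males it measured 11.54, 9.25, 12.29, 12.19 and 12.29 with Cdca7l on 5(3), 4(3), 5.6(1), 2(2) and 3(5), and 10.14, 11.65, 11.83, 2.86 and 2.82 with vector on 4(3), 2(4), 3(5), 5.6(1) and 2(2). The same pair of vector arrays was low, here below the background level, where the lowest of the other 35 arrays was 9.22. The difference was 3.65 ± 1.28 (unadjusted p = 0.00781, adjusted p = 1 in limma).

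Steap4 was low on the same 2 vector arrays. It measured 13.99, 12.04, 12.99, 12.81 and 13.74 with Cdca7l on 5(3), 4(3), 5.6(1), 2(2) and 3(5), and 10.87, 14.15, 14.07, 3.79 and 3.54 with vector on 4(3), 2(4), 3(5), 5.6(1) and 2(2). The difference was 3.83 ± 1.46 (unadjusted p = 0.0132, adjusted p = 1 in limma). Its dimmer probe set 1425829_a_at, above background on 22 of 37 arrays, differed by 0.33 ± 1.81 in B6 males. It was below background on vector arrays 4(3), 5.6(1) and 2(2) and on Cdca7l array 2(2), so it gives no size for the difference on those arrays.

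All 3 differences rested on vector arrays 2(2) and 5.6(1). Without those 2 arrays, a choice made after seeing the data, the difference in B6 males was -0.01 for Lcn2, 0.31 for Saa3 and 0.08 for Steap4, and the averaged Cdca7l effect on Saa3 turned to -0.03. The astrocyte marker mean on these 2 arrays was 11.5 and 11.6, inside the range of the B6 male vector group (10.2 to 11.8). Their fibroblast marker means were 4.80 and 4.62, the lowest among vector arrays, and the Cdca7l arrays with the same labels had 4.81 and 5.25 with high Lcn2, Saa3 and Steap4. Their microglial marker means were 3.39 and 3.29, against 5.05 and 4.68 on the Cdca7l arrays with the same labels, and 2.67 to 3.09 on the other 3 vector arrays. The part of the microglial markers in the 3 differences was not tested. On the same pair of arrays Cd44 was also lower than on every other array (12.66 and 12.79, others 13.04 to 13.89), whereas 16 of the other 35 arrays lay below both for Osmr, 13 for Socs3, 14 for Hspb1, 10 for Il6, 7 for Serpina3n and 6 for Cp. Serpina3n, at 10.64 on 2(2) and 10.65 on 5.6(1), was lower there than on every other male array, and the Cdca7l arrays with those labels had 12.65 and 12.61.

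Arrays that share a clone label gave 15 Cdca7l and vector pairs, 4 each from 129 females, 129 males and B6 males and 3 from B6 females. Only the B6 labels met the rule for pairs given with the processing. In 129 the deviations from group means correlated at 0.061 for 2(3) of females and -0.089 for 3(3) of males. The other 129 labels were at 0.416 to 0.716, but the 129 labels were not taken as pairs. Lcn2 was higher with Cdca7l in 8 of 15 pairs and within 1 log2 unit in 13, with a median difference of 0.00 and a range from -0.17 to 5.37. Saa3 was higher in 11 of 15 pairs (median 0.40, range -1.26 to 9.43) and Steap4 in 10 (median 0.11, range -0.91 to 9.27). The medians of all 3 genes lay far below their highest pairs, which were the 2(2) and 5.6(1) pairs of B6 males. Il6 was higher in 9 pairs but within 1 log2 unit in only 7, with a range from -3.16 to 2.62. By strain, Il6 was higher with Cdca7l in 3 of 3 pairs of B6 females (median 1.28) and in 3 of 4 of B6 males (median 1.94), and in 1 of 4 pairs of 129 females (median -0.41) and 2 of 4 of 129 males (median -0.49). The averaged difference of Il6, -0.37 without the pairing, was 0.37 with the clone label as a fixed replicate block (adjusted p = 1.00 in limma). That block used the 129 labels as well. Cd44 stayed within 1 log2 unit in 15 of 15 pairs and Cp and Socs3 in 14.

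**Figure D2:**
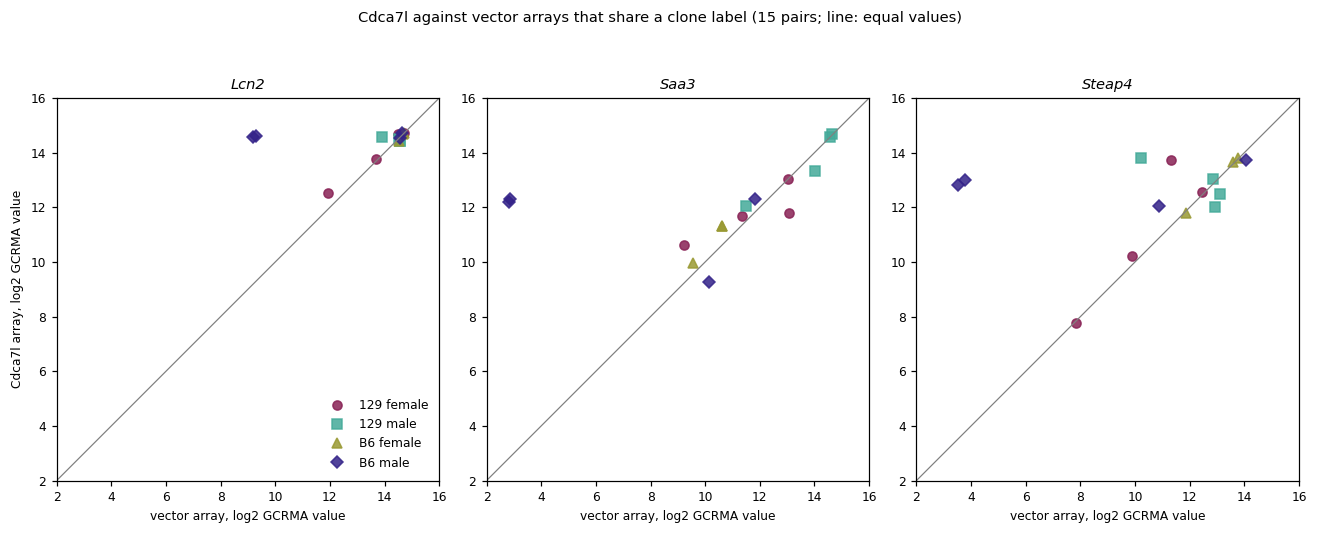
Log2 GCRMA value of Lcn2, Saa3 and Steap4 on the vector array (x axis) and on the Cdca7l array of the same clone label (y axis) for 15 pairs; symbols give strain and sex and the line marks equal values. A pair of B6 male points lies far above the line in each panel, with vector values of 9.19 and 9.30 for Lcn2, and most other points lie near the line.

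Whether the effect of Cdca7l differed between groups was asked in 3 further comparisons. Between the sexes, between the strains, and between B6 males and the mean of the other 3 combinations, 0 (0%) of all probe sets and 0 members passed in limma, with 184, 429 and 634 probe sets at an unadjusted p under 0.05. In the last, which was chosen with earlier results known, Saa3 had a difference of 3.79 ± 1.51, Lcn2 2.02 ± 0.879 and Steap4 3.17 ± 1.71. Without vector arrays 2(2) and 5.6(1) these were 0.44, -0.13 and -0.58, so the difference of Lcn2 and Steap4 changed sign.

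The same signalling routes were read from lists of other genes. None of the genes of the 13 pathway lists passed in any Cdca7l comparison in limma, and in B6 males 4 had an unadjusted p under 0.05: Tnfaip3, Cebpd, Ptx3 and Iigp1. In B6 males all 9 tested genes of the NF-kB and interleukin 1 or tumour necrosis factor list were higher with Cdca7l (median 0.24), with Tnfaip3, a feedback inhibitor of NF-kB, at 0.83 ± 0.384. Of 4 C/EBP genes 2 were higher, with Cebpd at 0.76 ± 0.325. The long pentraxin Ptx3 was at 1.22 ± 0.524 and the interferon-induced GTPase Iigp1 at 2.15 ± 0.955. All 9 tested microglial markers were higher as well (median 1.09). In 129 males, in B6 females and in the averaged effect the same 9 markers were all lower with Cdca7l. The NF-kB list was mixed in direction in 129 males and in B6 females, with Rela at -0.21 and Tnfaip3 at 0.07 in 129 males. In B6 males the adjusted p in limma was 1 for each of these genes. The 2 low vector arrays enter these differences too, and the list genes were not refitted without them. On those 2 arrays the microglial marker mean was 3.39 and 3.29. That is above the other B6 male vector arrays and below the Cdca7l arrays with the same labels, at 5.05 and 4.68. The part of the microglial markers in these differences was not tested.

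The second question was how the 10 genes differed between strains. Averaged over sex and construct, 8 of 25 member probe sets passed in limma, where 6456 of all tested probe sets passed, 25.2%. Among all passing probe sets 3743 were higher and 2713 lower in B6, and 2 of the 8 member probe sets were higher in B6 and 6 lower. Passing or not, 16 of 25 member probe sets were higher in B6, with a median of 0.37, beside 49.6% and a median of -0.00 over all probe sets. All 8 Cp probe sets are among the 16, so Cp weighs heavily in this count. By main probe set Cp, Osmr, Serpina3n, Steap4 and Socs3 were above 0 and Lcn2, Saa3, Il6, Hspb1 and Cd44 below it. By gene, Saa3, Il6, Hspb1 and Cd44 were lower in B6, Cp was higher by 2 of its 8 probe sets, and Lcn2, Steap4, Serpina3n, Osmr and Socs3 did not pass. The arrays of the 2 strains overlapped for each of the 10 genes.

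Il6 itself, the cytokine, was lower in B6. Its log2 values ran from 3.43 through a median of 8.33 to 12.40 on 18 arrays of 129 and from 3.79 through 5.37 to 10.32 on 19 arrays of B6. The difference, B6 minus 129, was -2.20 ± 0.692, a 4.60-fold lower level (adjusted p = 0.0198 in limma). The highest values came from 129 males. Their vector arrays 3(3), 3(1), 5(1), 5(2) and 3(2) measured 10.69, 11.34, 11.61, 8.94 and 7.52. Their Cdca7l arrays 3(3), 3(1), 1(4), 5(1) and 3(2) measured 7.53, 11.79, 4.72, 12.40 and 6.08. In B6 males no array exceeded 7.99, and the highest B6 value, 10.32, was on a female array. With males alone the difference was -3.64 (adjusted p = 0.0138) and with females alone -0.76 (adjusted p = 0.651), while the difference between the sexes itself, -2.88 ± 1.38, had an adjusted p of 0.318 in limma.

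Saa3 was also lower in B6. It ran from 9.22 through a median of 13.04 to 14.68 in 129 and from 2.82 through 11.33 to 13.09 in B6. The difference was -2.30 ± 0.672, a 4.91-fold lower level (adjusted p = 0.0128 in limma). Without the 2 low B6 male vector arrays it was -1.46 (adjusted p = 0.0142). It did not pass with females alone (-0.70, adjusted p = 0.457) or with vector arrays alone (-3.28, adjusted p = 0.0907 in limma). The difference between the sexes itself, -3.19, had an adjusted p of 0.263. In 129 males the vector arrays measured 11.50, 14.55, 14.63, 14.35 and 14.02 on 3(3), 3(1), 5(1), 5(2) and 3(2), and the Cdca7l arrays 12.03, 14.57, 12.12, 14.68 and 13.31 on 3(3), 3(1), 1(4), 5(1) and 3(2). In 129 females the highest value was 13.07, above the 3 lowest arrays of 129 males, so the sexes overlapped.

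Hspb1 had a median of 11.73 in 129 (8.77 to 13.29) and of 9.89 in B6 (7.51 to 11.71). The difference was -1.23 ± 0.389, a 2.35-fold lower level in B6 (adjusted p = 0.0204). The second probe set 1425964_x_at gave -1.40 ± 0.391 (adjusted p = 0.00943 in limma). The main probe set did not pass with females alone (-0.96, adjusted p = 0.347) or with vector arrays alone (-1.45, adjusted p = 0.110 in limma). Cd44 was lower by a small amount, with medians of 13.54 in 129 and 13.26 in B6. The difference was -0.30 ± 0.0862, 1.23-fold (adjusted p = 0.0117). With females, males or vector arrays alone Cd44 did not pass (adjusted p = 0.196, 0.0885 and 0.0650 in limma). Its other probe sets disagreed in size: 1452483_a_at differed by -1.36 ± 0.298 (adjusted p = 0.00128 in limma) and 1423760_at by -0.02 ± 0.113 (adjusted p = 0.899). A probe set with the suffix x_at may also bind related transcripts, which holds for Socs3 probe sets as well.

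Ceruloplasmin, the copper-carrying ferroxidase encoded by Cp, went the other way. Its brightest probe set had a median of 14.21 in 129 (10.98 to 14.60) and of 14.41 in B6 (13.01 to 14.59), a difference of 0.56 ± 0.237 that did not pass (adjusted p = 0.0804 in limma). The probe sets 1448735_at and 1417497_at passed at 1.52 ± 0.474 (adjusted p = 0.0185) and 1.57 ± 0.517 (adjusted p = 0.0255), 4 others lay between 0.39 and 0.72, and 1441326_at was at 0.03. Osmr, the subunit that pairs with gp130 to receive oncostatin M, was 1.45 ± 0.551 higher in B6, at an adjusted p of 0.0521 in limma. It passed without the 2 arrays that stand apart (1.60, adjusted p = 0.0365) and when any of 8 single arrays was left out. For Serpina3n, a secreted serine protease inhibitor, the difference was 0.84 ± 0.73, for Steap4 0.37 ± 0.762, for Socs3 0.08 ± 0.206 and for Lcn2 -0.07 ± 0.392.

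**Figure D3:**
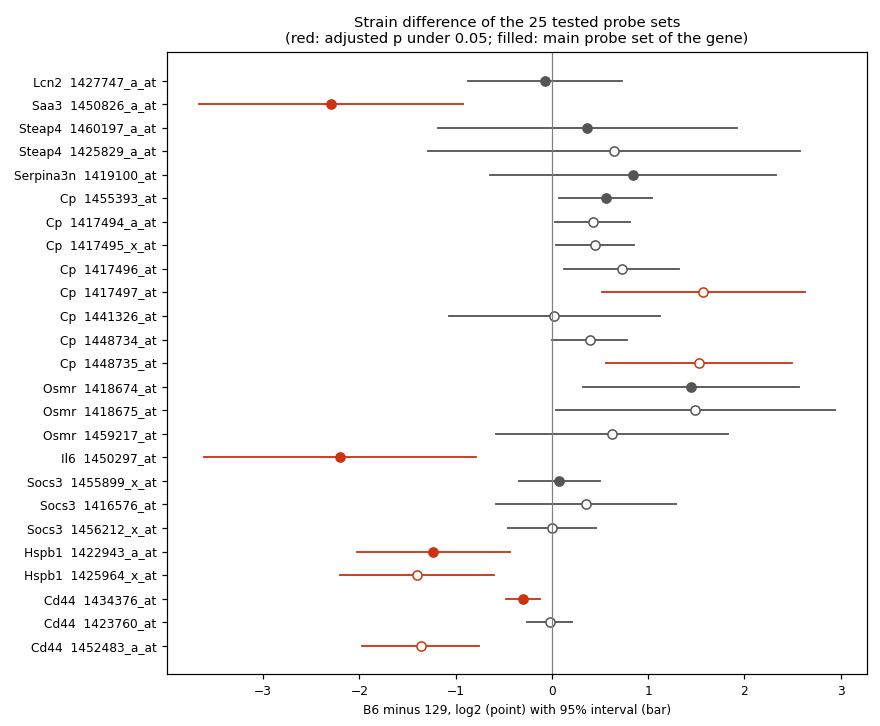
Difference between strains, B6 minus 129, on the log2 scale (x axis) for the 25 tested probe sets (y axis), with 95% intervals; filled points are the main probe set of each gene and red marks an adjusted p under 0.05. Saa3, Il6, both Hspb1 probe sets and 2 of 3 Cd44 probe sets lie below 0 in red, and 2 Cp probe sets lie above 0 in red.

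The strain count depended on which arrays entered. With a random replicate block for arrays of the same clone number 5 of 25 member probe sets passed, beside 4249 of all tested probe sets. Saa3 (-2.15, adjusted p = 0.0703) and Il6 (-2.02, adjusted p = 0.0593) did not pass in limma. Leaving out 129 female Cdca7l 1(3) or 129 female vector 2(3) raised the count to 13. Over all fits with a single array left out, 5308 to 7724 of all tested probe sets passed. Vector arrays alone gave 2 member probe sets, beside 2222 of all.

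Markers of other cells moved with the strains too, where 25.2% of all tested probe sets passed. Of 7 tested fibroblast and meningeal markers none was higher in B6 and 4 passed as lower, Col3a1, Col1a2, Col1a1 and Dcn, with a list median of -2.75; Col3a1 differed by -5.43 ± 0.881. Of 9 tested astrocyte markers 9 were higher in B6 (median 0.77) and 4 passed, Aqp4, Sox9, Slc1a3 and Glul. The mean of the 8 fibroblast markers ran from 6.46 to 11.16 in 129 male vector arrays and from 6.88 to 11.31 in 129 male Cdca7l arrays, against 4.62 to 6.37 in the 4 B6 groups. In 129 females it ran from 5.01 to 7.99. Of 9 microglial markers none passed (median -0.66). Of the oligodendrocyte, endothelial and neuron lists 2 of 4, 0 of 2 and 2 of 4 tested genes passed as higher in B6 and 0, 1 and 1 as lower. The part of these cells in the strain differences was not tested. The 4 arrays 129 male 3(1) and 5(1) of both constructs had the highest fibroblast means (11.15 to 11.31) and also the highest Saa3. Without them 4 of 25 member probe sets passed, beside 4088 of all tested probe sets. Saa3 (-1.95, adjusted p = 0.0742), Il6 (-1.36, adjusted p = 0.139) and Hspb1 (-1.05, adjusted p = 0.094) did not pass in limma. The 4 arrays 129 female 2(1) and 4(1) of both constructs had the lowest astrocyte means (7.89 to 9.31). Without them 2 member probe sets passed, beside 3392 of all tested probe sets. Saa3 stayed below the threshold (-2.80, adjusted p = 0.0157), and Il6, Hspb1 and Cd44 did not pass (adjusted p = 0.232, 0.302 and 0.178 in limma). Both sets were left out after the data had been seen.

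In 129 females Serpina3n, Osmr, Cp, Steap4, Lcn2 and Saa3 were lower on clone labels 4(1) and 2(1) than on 2(3) and 1(3), with either plasmid. Serpina3n measured 5.31 on Cdca7l 4(1), 8.35 on 2(1), 13.01 on 2(3) and 13.53 on 1(3), and 4.07, 7.99, 12.31 and 13.64 on the vector arrays of those labels in the same order. Osmr measured 4.41, 9.11, 12.24 and 13.12 with Cdca7l and 6.08, 9.52, 12.24 and 12.11 with vector, again in that order. The order of the 4 clone labels was the same with both plasmids for Serpina3n, and 4(1) was lowest and 2(1) next for both genes. Astrocyte marker means followed, at 8.38, 9.31, 10.61 and 11.62 with Cdca7l and 7.89, 9.29, 11.01 and 11.15 with vector. Lcn2 measured 12.53 on Cdca7l 4(1) and 13.78 on 2(1), and 11.95 and 13.69 on the vector arrays of those labels. On 2(3) and 1(3) it was 14.50 to 14.71. Saa3 was lowest on 4(1), at 10.61 with Cdca7l and 9.22 with vector. Without 2(1) and 4(1), the strain difference of Serpina3n turned to -0.83, of Steap4 to -0.52 and of Socs3 to -0.16.

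Other genes of these routes differed between strains as follows, in a comparison where 25.2% of all tested probe sets passed. Counts of a list near that share are not particular to the list. Of 4 tested ligands of the interleukin 6 family, Il11 was lower in B6 (-2.06 ± 0.553) and Ctf1 higher (0.66 ± 0.146), and Lif and Clcf1 did not pass. The shared receptor subunit Il6st (0.72 ± 0.176, adjusted p = 0.00358) and the Lif receptor Lifr (1.27 ± 0.364, adjusted p = 0.0115 in limma) were higher in B6, 2 of 4 receptor genes. Stat3 was higher at 0.68 ± 0.191 (adjusted p = 0.0101), 1 of 4 in its list, and none of 5 inhibitors, 9 NF-kB genes or 4 C/EBP genes passed. Among the ligands that passed, Il6 and Il11 were lower in B6 and Ctf1 higher.

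Other reactive genes were split, again beside 25.2% of all tested probe sets that passed between strains. Of 6 pan-reactive genes Timp1, a metalloproteinase inhibitor, was lower in B6 (-1.56 ± 0.312) and S1pr3 higher (1.07 ± 0.358), while Gfap and Vim did not pass. Of 9 tested genes known from astrocytes after lipopolysaccharide 3 passed as higher, Iigp1 (2.07 ± 0.499), Psmb8 and H2-D1 of antigen presentation, and 1 as lower, Fkbp5. Of 11 known from ischaemia Cd109 was higher and Emp1 and S100a10 lower. Of 5 other acute-phase proteins Orm2 passed as higher at a mean level of 2.84, under the background level. Saa1, a close relative of Saa3, was at -2.11 ± 0.812 (adjusted p = 0.0546), with a mean level of 3.22, close to background. Among 10 iron and copper genes Steap3 and Slc22a17, a lipocalin 2 receptor, were higher and Steap2 and Tfrc, the transferrin receptor, lower. Of 5 small heat shock genes Hspb8 was higher (0.18 ± 0.0599) and Hspb2, at a mean level of 2.65 and so under the background level, lower.

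Between the sexes, averaged over strain and construct, 0 of 25 member probe sets passed in limma, where 82 (0.321%) of all probe sets did, and 7 had an unadjusted p under 0.05 beside 4626 of all. In males 22 of 25 were higher, with a median of 0.38, beside 51.8% and a median of 0.01 over all probe sets. Here and in the next comparison several member probe sets measure the same gene. Serpina3n was 1.74 ± 0.73 higher (adjusted p = 0.215), Osmr 1.29 ± 0.551 (adjusted p = 0.225) and Cp 0.54 ± 0.237 (adjusted p = 0.237 in limma). On the 17 female arrays Serpina3n ran from 4.07 to 13.64 with a median of 12.95, and on the 20 male arrays from 10.64 to 13.53 with a median of 12.63, so the female median was the higher although the female mean was the lower. The difference between sexes of the strain difference had 12 of 25 members at an unadjusted p under 0.05, beside 3917 of all probe sets, but 0 of either kind passed in limma (0%). Of the 25, 2 were above 0 and the median was -1.04, beside 39.6% above 0 and a median of -0.13 over all probe sets. The largest among the main probe sets were Steap4 at -3.82 ± 1.52 (adjusted p = 0.244) and Saa3 at -3.19 ± 1.34 (adjusted p = 0.263), and the 2 low B6 male vector arrays enter both. Without them these values were -1.94 and -1.52. In the order of the 8 group means of each gene, 1 of 70 gaps between neighbours exceeded the larger of the 2 group SDs, that of Saa3 between 129 male Cdca7l (13.34 ± 1.28, SD, n = 5) and the group below it, a gap of 1.56.

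Across the 37 arrays, after centring each gene on its group means, several members varied together. Lcn2 and Steap4 correlated at a Pearson r of 0.933 (Spearman 0.955), Lcn2 and Saa3 at 0.878 (Spearman 0.637) and Saa3 and Steap4 at 0.849 (Spearman 0.587). Leaving out the 2 arrays farthest from the median gave 0.886, 0.779 and 0.742. The group means used for centring still included those arrays, so these values do not show the correlation free of them. Cp and Osmr correlated at 0.952, Serpina3n and Cp at 0.874 and Serpina3n and Osmr at 0.843. By rank these 6 genes did not separate into sets: Spearman's rho was 0.832 for Lcn2 and Cp, 0.812 for Lcn2 and Serpina3n and 0.8497 for Steap4 and Serpina3n, above both values of Saa3 with Lcn2 and Steap4. Hspb1 correlated at -0.730 with Serpina3n and at 0.687 with Il6. Il6 and Saa3, both lower in B6, correlated at only 0.0582 within groups. Clone labels are shared between arrays, so these values over 37 arrays are descriptions and carry no p.

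**Figure D4:**
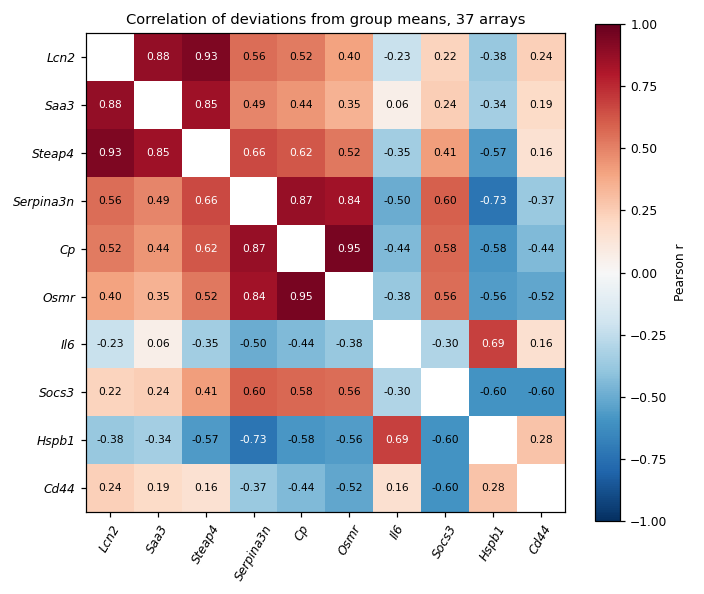
Pearson correlation between the 10 genes (both axes) over 37 arrays, each gene centred on its 8 group means; red is positive and blue negative. Lcn2, Saa3 and Steap4 are at 0.849 to 0.933 with each other and Serpina3n, Cp and Osmr at 0.843 to 0.952, with lower positive values between these genes, and Hspb1 and Il6 are negative with Serpina3n, Cp and Osmr.

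The genes most like each member were read from the same centred values. Steap4 was closest to the inflammatory caspase Casp4 (r = 0.940), the chitinase-like protein Chil1 (0.899) and Lgi2 (0.884), and Lcn2 to Igfbp7 (0.906), Lgi2 (0.862) and Casp4 (0.845). Saa3 was closest to the interferon-induced Oas1a (0.864), the chemokine Ccl2 (0.847) and Igfbp7 (0.835). Serpina3n went with astrocyte genes, namely the glutamate transporter Slc1a2 (0.939), the sodium pump subunit Atp1b2 (0.937) and Apoe (0.933), and Osmr and Cp both had the glutamate transporter Slc1a3 first (r of 0.947 for Osmr and 0.9495 for Cp). Il6 went with Ptgs2 (0.862), which makes prostaglandins, the matrix proteoglycan Bgn (0.861) and the metalloproteinase Mmp10 (0.853). Socs3 had Oscp1, Wdr66 and Eno4 (0.868 to 0.882), Cd44 had Maf, Ackr4 and Slc6a6 (0.812 to 0.838), and Hspb1 had Crtap, Prelid2 and Rusc2 (0.901 to 0.905). These values are Pearson r. By rank, Spearman's rho with Lcn2 was 0.506 for Igfbp7, 0.840 for Lgi2 and 0.924 for Casp4. With Saa3 it was 0.801 for Oas1a, 0.653 for Ccl2 and 0.551 for Igfbp7.

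The marker lists were set beside the members on each array in the same way. With the mean of the 10 astrocyte markers, Serpina3n correlated at 0.885, Osmr at 0.859, Cp at 0.852 and Socs3 at 0.626, Steap4 at 0.482 and Lcn2 at 0.284, while Hspb1 was at -0.726 and Il6 and Cd44 at -0.549 each. With the mean of the 8 fibroblast and meningeal markers Il6 was at 0.629, Hspb1 at 0.352 and Saa3 at 0.310, and Serpina3n, Cp and Osmr lay between -0.227 and -0.033. By rank Lcn2 and Steap4 were higher with the astrocyte markers, at a Spearman rho of 0.636 and 0.683. Other lists gave values of like size: with the 8 oligodendrocyte lineage markers Serpina3n was at a Pearson r of 0.695, Osmr at 0.689 and Cp at 0.672, and with the 7 endothelial markers Il6 was at 0.626.

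**Figure D5:**
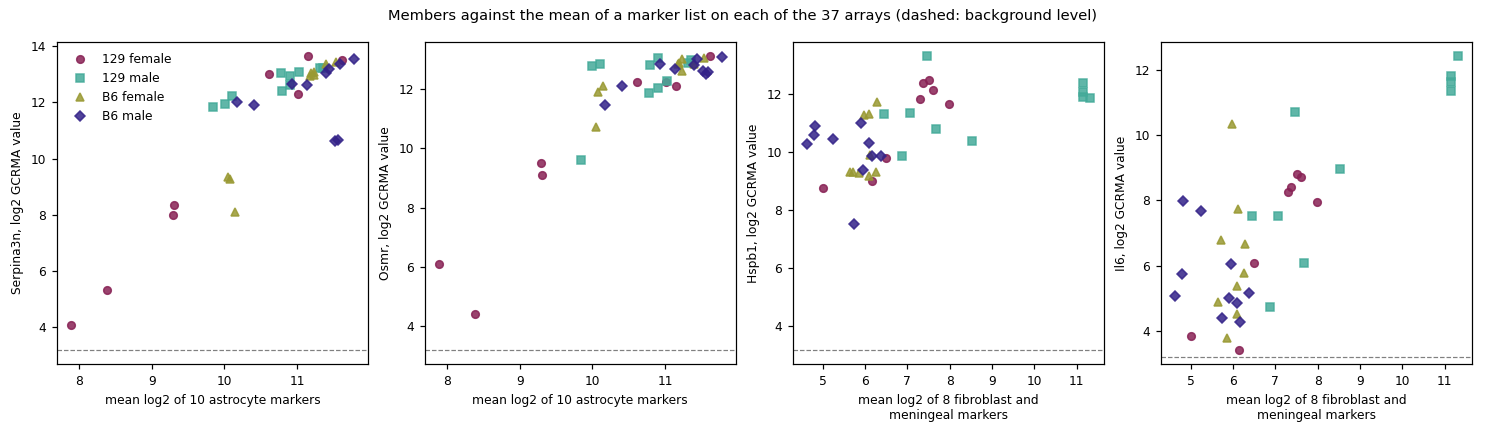
Log2 GCRMA value of Serpina3n, Osmr, Hspb1 and Il6 (y axes) against the mean of the 10 astrocyte markers or of the 8 fibroblast and meningeal markers (x axes) on each of the 37 arrays; symbols give strain and sex and the dashed line the background level. Arrays with the lowest astrocyte means, 7.89 and 8.38, have Serpina3n at 4.07 and 5.31, and the 4 arrays with fibroblast means above 11 have Il6 between 11.34 and 12.40.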

How the data were processed

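RNA of 37 astrocyte cultures was measured on 37 one-colour Affymetrix arrays. The authors deposited log2 expression values for 45101 probe sets, made with GCRMA in Partek 6.5 per the submitters' processing notes. They were used as deposited, and the number of arrays, not a read depth, limits the precision. A probe set was tested if it exceeded the median of the table, 3.19, on at least 4 arrays (64 controls were left out, 19458 did not pass, 25579 were tested). One fit in limma 3.58.1 under R 4.3.3 gave each of the 8 groups a mean, with 29 residual degrees of freedom, over 11 comparisons, and a Benjamini-Hochberg adjusted p under 0.05 passed. Adjusted p-values are from this fit, except where a smaller set of arrays or a replicate block is named beside them. Those come from a separate fit in limma. The script was tested on simulated data. Names came from the platform annotation, and promoters from RefSeq.

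The 10 members and the gene lists (13 on pathways, 6 on cell types) were chosen with earlier results of these data known. List genes are named if they passed, otherwise by the smallest p, and the 3 genes most like each member by Pearson r; others, such as Saa1, Gfap and Vim, were chosen after their values were seen. A list gene is read from its brightest probe set, and other Serpina3 family genes were not tested, since none of their probe sets passed the filter.

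The design text calls the isolates independent. Of the same-labelled arrays, deviations from group means correlated at 0.432 to 0.775 in 3 pairs of B6 females and 0.376 to 0.572 in 4 pairs of B6 males, so labels were taken as pairs there. In 129, 6 of 8 pairs correlated at 0.416 to 0.716, but 2(3) of females was at 0.061 and 3(3) of males at -0.0887, so under the rule that every pair exceed 0.1 the labels there were not taken as pairs. The correlation within a label was 0.409 in the random block.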

Additional observations from a re-analysis of the deposited data

Results flagged for a closer look

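Each of the 10 genes was examined in each of the 8 groups for an array far from the rest of its group, which made 80 groups of 4 or 5 arrays, and 10 had such an array. Chance marks about 1 group in 20. In 129 male vector the array 3(3) was the lowest for 4 genes: Lcn2 at 13.91 (others 14.52 to 14.58), Saa3 at 11.50 (14.02 to 14.63), Steap4 at 10.22 (12.86 to 13.12) and Cp at 12.94 (14.18 to 14.52). In B6 female Cdca7l the array 6(3) was lowest for Saa3 at 9.94 (11.33 to 11.37) and for Serpina3n at 8.09 (13.05 to 13.45), and highest for Hspb1 at 11.71 (9.18 to 9.32). The vector array 6(3) of B6 females had Serpina3n at 9.26 and Hspb1 at 11.31, the highest Hspb1 of its group. The other far arrays were B6 male Cdca7l 4(3) for Saa3 at 9.25 (11.54 to 12.29), B6 female vector 2.1(1) for Cp at 13.01 (14.13 to 14.53) and 129 male Cdca7l 3(2) for Osmr at 12.03 (12.80 to 12.98). The low B6 male vector arrays 2(2) and 5.6(1) are not among them, since a pair of like low values has no gap between its members.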

How the results depend on the processing

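For the 55 differences of a gene that were followed, 2569 of 2670 recomputed values kept their direction and side of the threshold, 17 passed only as reported, 16 passed only under the alternative and 68 changed sign, none of them a value that had passed. Of 519 recomputed counts 9 moved by over 1.5 times. The strain count of 8 stood beside 6456 of all tested probe sets, whose number is given in parentheses for each alternative. It became 5 (4249) with the random replicate block and 2 (2222) with vector arrays alone. In settings chosen after seeing the data it was 4 (4088) without 129 male 3(1) and 5(1) and 2 (3392) without 129 female 2(1) and 4(1). With females alone it was 1 (1702) and with males alone 4 (2899). With single arrays left out it ran from 7 to 13 (5308 to 7724). The sex difference of the strain effect gave 0 to 1 (0 to 411) with single arrays left out. Quantile normalization, no filter and raising values to the background level left the strain count at 8. The random replicate block turned Saa3 in B6 females to 0.17, and the fixed replicate block (11 residual degrees of freedom) turned it to 0.62, Lcn2 there to -0.034 and averaged Il6 to 0.37; the random block ended the strain calls of Saa3 and Il6, and the replicate blocks changed no other call of a main probe set where they could be fitted. Without both arrays that stand apart, averaged Cd44 was -0.041, Saa3 in B6 females 0.45 and the strain difference of Lcn2 0.014. Vector arrays alone gave Steap4 -0.44 between strains and Saa3 -0.53 and Steap4 -0.66 between sexes. Without B6 male vector 2(2) and 5.6(1), averaged Saa3 and Cd44 were -0.027 and -0.046, Lcn2, Serpina3n and Cd44 in B6 males -0.0076, -0.12 and -0.029, Lcn2 0.47 between strains and 0.33 between sexes, and B6 males against the others -0.13 for Lcn2 and -0.58 for Steap4. Without 129 male 3(1) and 5(1), averaged Cd44 was -0.025 and Saa3 -0.086 between sexes. Without 129 female 2(1) and 4(1), Saa3 in 129 females was -0.63, Serpina3n, Steap4 and Socs3 were -0.83, -0.52 and -0.16 between strains, and Saa3, Steap4 and Cd44 -0.25, -0.79 and 0.033 between sexes. Females alone gave Lcn2 0.79 between strains, and males alone Serpina3n -0.29 and Steap4 -1.54. Other probe sets gave Steap4 -1.81 in B6 males against the others, Cd44 0.047 between sexes and -0.24 averaged, Osmr -0.51 in B6 males and Socs3 -0.0019 between strains. Leaving out single arrays gave averaged Cd44 -0.031 to 0.039 and Osmr -0.036 to 0.73, in 129 females Lcn2 -0.38 to 0.67, Saa3 -0.70 to 0.58 and Steap4 -0.20 to 1.78, in 129 males Lcn2 -0.040 to 0.13, in B6 females Saa3 -0.44 to 0.45, in B6 males Hspb1 -0.25 to 0.63 and Osmr -0.11 to 0.30, between strains Lcn2 -0.21 to 0.14, and between sexes Steap4 -0.20 to 0.47. The cause of these shifts was not tested beyond the arrays named. Values below 3.19 are not distinguished from background.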
